A study of Mus musculus with 6 samples.

Results

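The genes described here encode 10 transcription factors of mesenchymal cells, several of which hold back fat cell formation: Zfp521, Zfp423, Gata2, Gata3, Gata6, Twist1, Twist2, Osr1, Prrx1 and Sox9. The set is a list of names with no threshold on measured values, drawn up with earlier results of these data known, and all 10 were found among the 22942 genes of the tables. The libraries came from C3H-10T1/2 cells, an established mouse line of mesenchymal cells able to form fat, after 6 days of brown adipocyte differentiation. The design holds 1 contrast, with 3 cultures given 4 uM of 611 (Cpd A), which inhibits the histone-demethylating enzyme LSD1, set against 3 given the solvent DMSO. Both groups received the same induction mix for 72 h, with isobutylmethylxanthine at 0.5 mM, indomethacin at 125 uM, dexamethasone at 1 uM, insulin at 20 nM, the thyroid hormone T3 at 1 nM, rosiglitazone at 1 uM and 10% serum. Insulin, T3 and rosiglitazone stayed on until harvest. One label places the start of 611 or DMSO at seeding and another 12 h later, with induction 48 h after that. All cultures are of 1 cell line, the series describes each group as biological triplicates, and p-values measure the spread between those cultures only.

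Mesenchymal cells become fat cells when the nuclear receptor Pparg and the C/EBP factors take over, and a set of transcription factors acts upstream of that switch. Zfp423 commits mesenchymal cells to the fat lineage and is known to raise Pparg, whereas its close relative Zfp521 opposes it and restrains Ebf1. Gata2 and Gata3 are expressed in fat cell precursors and hold Pparg down, Sox9 represses Cebpb and Cebpd in precursors, and Twist1 is known in brown fat to restrain genes driven by the coactivator Ppargc1a. Osr1 and Prrx1 mark mesenchyme of the embryonic limb and other connective tissue.

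At day 6, 6 of the 10 factor genes were higher with 611 than with DMSO and 1 was lower. Zfp521, Gata2, Osr1, Sox9 and Prrx1 rose between 1.87-fold and 3.03-fold, Gata6 rose 1.23-fold, and Zfp423 fell. Gata3, Twist1 and Twist2 did not pass the test. A call is an adjusted p below 0.05 in limma on log2(RPKM + 1), with Benjamini-Hochberg adjustment over the 13829 genes at 0.1 RPKM or more in at least 3 libraries. RPKM counts the reads on a transcript per kilobase of its length, scaled to the size of the library, so that levels of different genes can be compared per length.

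These counts stand in a transcriptome in which many genes moved. Of all 13829 genes tested, 41.6% were called higher and 17.7% lower, and every 611 library lay above every DMSO library in 45.8% and below in 20.4%. Among the 10 factor genes, 6 lay wholly above, 1 wholly below and 3 overlapped. The 6 of 10 called higher are to be read against that background. A log2 fold change of at least 1 with a higher call was reached by 3 of the 10 (Zfp521, Osr1 and Sox9) and by 3.59% of all genes tested. The log2(RPKM + 1) scale understates changes of low genes, which lowers the share over all genes. It also kept Gata2 under 1, at 0.94, although its ratio of means was 2.97. The median log2 fold change of all 10 was 0.559, against 0.104 over all genes tested. Median-of-ratios scaling, which sets the typical gene equal between libraries, moved the median of all genes to -0.003. After it 28.5% of all genes were called higher and 28.6% lower, and 5 of the 10 factor genes were higher and 1 lower. Gata6 was the gene that lost its call. Sox9 kept its call at a log2 fold change of 0.91, under 1, and the share of all genes at 1 or more was not computed after scaling. In bulk samples, fewer cells of a type and less RNA per cell cannot be told apart.

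**Figure D1:**
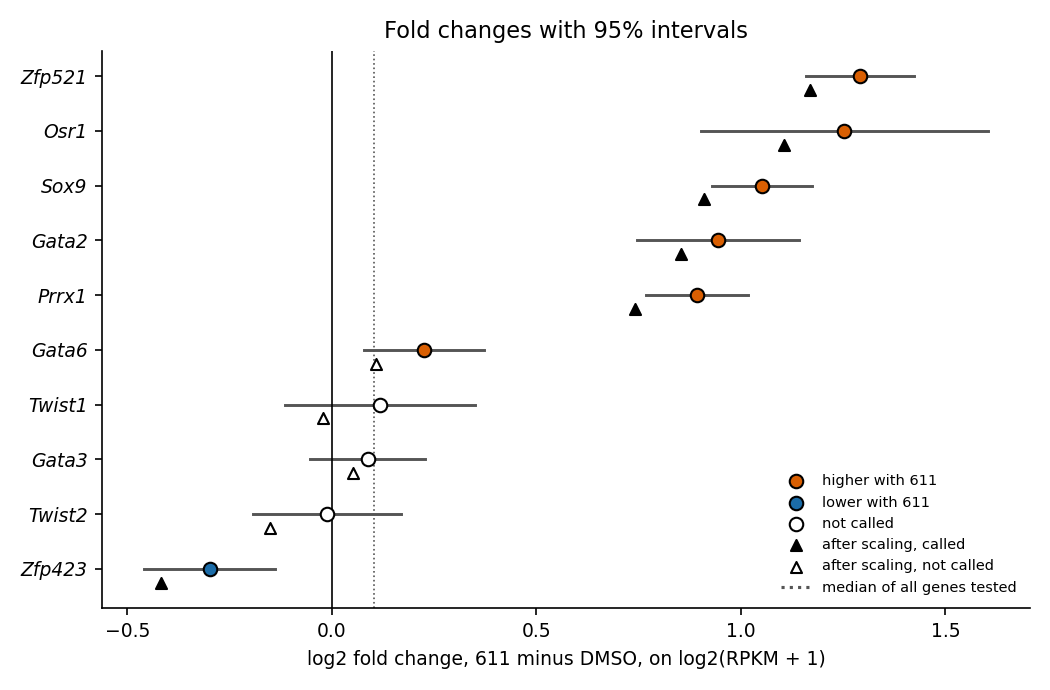
Log2 fold change of each of the 10 factor genes (611 minus DMSO, on log2(RPKM + 1), n = 3 libraries each), with circles for the estimate and bars for the 95% interval. Triangles give the estimate after median-of-ratios scaling, and the dotted line is the median of all genes tested, 0.104. The 5 highest genes lie well right of that line, and Zfp423 alone lies with its whole interval left of 0.

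Library totals, recovered from the steps between low RPKM values, lay between 4.08e+07 and 4.12e+07 with 611 and between 3.89e+07 and 3.99e+07 with DMSO, in reads or read pairs. The number of genes detected above 0 in a library lay between 15919 and 16021 with 611 and between 15732 and 15860 with DMSO. The smallest number of reads behind a factor gene was 25, for Gata3 in a DMSO library, and the other genes had at least 82 in every library. Prrx1 had about 10778 to 23430 reads per library, at the reference's transcript length. No single library stood apart in depth, but every 611 library was slightly deeper, with more genes detected, than every DMSO library.

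Promoter sequences are shown for the called genes that RefSeq's promoter table of GRCm38.p6 holds, 3 of the 7, because these genes moved in the same contrast in different directions. Each runs from 250 bases before a transcript start to 50 after it, on the gene's strand. The table held 8 promoters for 6 of the 10 genes, Gata2, Gata3, Zfp423, Twist1, Twist2 and Prrx1. Capitals mark matches, on both strands, to GATAA (the core that GATA factors bind), CANNTG (the E-box that Twist factors bind), ACAAT (the core that SOX factors bind) and CCCNNGGG (an inverted repeat bound by EBF factors).
Gata2, upstream start, chr6:88193641-88193940, plus strand: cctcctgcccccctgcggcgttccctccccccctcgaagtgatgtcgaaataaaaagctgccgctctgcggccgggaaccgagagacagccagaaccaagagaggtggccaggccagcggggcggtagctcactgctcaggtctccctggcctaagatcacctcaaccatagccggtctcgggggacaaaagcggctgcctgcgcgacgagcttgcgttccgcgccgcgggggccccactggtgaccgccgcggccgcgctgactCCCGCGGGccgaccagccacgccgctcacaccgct
Gata2, downstream start, chr6:88198414-88198713, plus strand: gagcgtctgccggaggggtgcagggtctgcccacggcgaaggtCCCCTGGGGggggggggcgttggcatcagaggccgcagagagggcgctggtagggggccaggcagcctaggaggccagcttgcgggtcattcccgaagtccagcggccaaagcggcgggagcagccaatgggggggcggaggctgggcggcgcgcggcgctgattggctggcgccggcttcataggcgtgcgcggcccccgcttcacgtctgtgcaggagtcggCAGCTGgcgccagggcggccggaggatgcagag
Prrx1, chr1:163313601-163313900, minus strand: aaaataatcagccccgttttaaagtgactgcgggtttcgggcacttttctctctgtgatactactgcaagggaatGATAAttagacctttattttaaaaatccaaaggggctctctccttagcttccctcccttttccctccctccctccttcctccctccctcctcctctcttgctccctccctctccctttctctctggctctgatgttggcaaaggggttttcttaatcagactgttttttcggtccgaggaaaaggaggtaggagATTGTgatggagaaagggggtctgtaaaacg
Zfp423, downstream start, chr8:87804390-87804689, minus strand: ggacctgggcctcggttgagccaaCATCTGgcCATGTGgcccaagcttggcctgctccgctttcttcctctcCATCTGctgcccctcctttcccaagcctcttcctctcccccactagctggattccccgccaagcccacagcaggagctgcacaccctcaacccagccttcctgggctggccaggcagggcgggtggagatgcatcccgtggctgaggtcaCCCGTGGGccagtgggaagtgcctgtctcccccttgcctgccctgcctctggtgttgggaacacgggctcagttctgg
Zfp423, upstream start, chr8:87959546-87959845, minus strand: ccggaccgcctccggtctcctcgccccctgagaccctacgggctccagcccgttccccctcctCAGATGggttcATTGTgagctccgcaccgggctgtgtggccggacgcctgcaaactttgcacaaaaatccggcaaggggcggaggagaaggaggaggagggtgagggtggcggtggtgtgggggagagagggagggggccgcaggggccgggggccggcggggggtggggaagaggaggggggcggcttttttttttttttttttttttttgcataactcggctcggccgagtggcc

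The Gata2 promoters were GC-rich, at 69.3% and 73.7% G and C, against a median of 52.7% over 32851 mouse promoters of the same length. They held CCCNNGGG, which 13.7% of all promoters hold, 15 bases after the upstream start and, as 2 overlapping matches 207 and 206 bases before it, at the downstream start. The downstream Gata2 promoter also held a CANNTG 17 bases after the start, a motif in 72.3% of all promoters. The Prrx1 promoter held 47.7% G and C, and it was the sole one of the 8 with GATAA (in 25.4% of all promoters), 175 bases before the start. It also held ACAAT, which 31% of all promoters hold, 19 bases after the start. The promoter at the downstream Zfp423 start held 3 CANNTG and a CCCNNGGG, and the upstream one a CANNTG 187 bases and an ACAAT 176 bases before the start. Among genes not called, the Twist1 promoter held an ACAAT, the Twist2 promoter a CCCNNGGG and the Gata3 promoter a CANNTG. These matches describe letters in a window, and no binding was measured.

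The zinc finger relatives Zfp521 and Zfp423 moved in opposite directions. Zfp521 (NM_145492), the antagonist of the pair, measured 7.29, 7.56 and 7.65 RPKM with 611, against 2.66, 2.37 and 2.40 RPKM with DMSO. The groups were far apart compared with the spread inside each, and 611 means of 7.50 ± 0.188 RPKM stood against 2.47 ± 0.158 RPKM with DMSO (SD, n = 3 each), a ratio of 3.03. The log2 fold change was 1.29 (95% interval 1.16 to 1.42), with a limma Benjamini-Hochberg adjusted p of 7.03e-07, on 1830 to 1924 reads per 611 library and 579 to 635 per DMSO library. Zfp423 (NM_033327), the fat lineage commitment factor, measured 3.33, 3.23 and 2.79 RPKM with 611, against 3.86, 4.28 and 4.03 RPKM with DMSO. Every 611 library lay below every DMSO library. The means were 3.12 ± 0.290 RPKM with 611 and 4.06 ± 0.212 RPKM with DMSO, and the log2 fold change was -0.30 (95% interval -0.46 to -0.14, limma Benjamini-Hochberg adjusted p = 0.00562). Both calls held under all 14 alternative settings tried.

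Zfp521 passed Zfp423 in level with 611. The ratio of Zfp521 to Zfp423 RPKM was 2.19, 2.34 and 2.75 in the 611 libraries, against 0.688, 0.553 and 0.595 in the DMSO libraries. Zfp521 thus made up 70.7 ± 2.39% of the summed RPKM of both genes with 611 and 37.9 ± 2.63% with DMSO (SD, n = 3 each). This difference of 32.8 percentage points had an exact two-sided permutation p of 0.1, the smallest that 3 libraries against 3 can give, and 0.15 after Benjamini-Hochberg adjustment over the 3 families compared. The summed level of both was 10.6 ± 0.177 RPKM with 611 and 6.53 ± 0.113 RPKM with DMSO. A share within a library does not depend on how the libraries are scaled.

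The EBF factors, DNA-binding proteins that Zfp423 and Zfp521 bind, were measured beside them. Of 4 listed, 3 passed the filter on low values, 2 were higher, none was lower and the median log2 fold change was 0.26. Over all genes tested 41.6% were called higher and 17.7% lower, and 3 genes are too few to set against these shares. Ebf1 measured 36.5 ± 1.44 RPKM with 611 and 24.8 ± 0.992 RPKM with DMSO, a 1.47-fold rise (limma Benjamini-Hochberg adjusted p = 1.53e-05). Ebf2, which is known for its role in brown fat cells, was low, at 0.880 ± 0.214 RPKM with 611 and 0.564 ± 0.0289 RPKM with DMSO, and its call (limma Benjamini-Hochberg adjusted p = 0.0242) was lost after scaling. Without 611 replicate 2, DMSO replicate 1 or DMSO replicate 3 the list likewise held 1 call. With the replicate block all 3 tested genes were called higher, Ebf3 (6.20 ± 0.340 RPKM with 611 and 5.59 ± 0.276 RPKM with DMSO) among them.

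Of the GATA factors, which bind GATA sequences through zinc fingers, Gata2 had the largest fold change. Gata2 (NM_008090) measured 2.49, 2.80 and 2.50 RPKM with 611, against 0.651, 1.02 and 0.952 RPKM with DMSO. All 611 libraries were above all DMSO libraries, and the means were 2.60 ± 0.177 RPKM with 611 and 0.876 ± 0.198 RPKM with DMSO, a ratio of 2.97. The log2 fold change on log2(RPKM + 1), a scale that understates the change of genes near 1 RPKM, was 0.94 (95% interval 0.75 to 1.14, limma Benjamini-Hochberg adjusted p = 2.48e-05). This call held under all 14 alternatives. The reads behind it numbered 329 to 374 per 611 library and 82 to 132 per DMSO library.

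Gata6 (NM_010258), a GATA factor of heart and endoderm development, measured 3.58, 4.04 and 3.68 RPKM with 611, against 3.09, 3.24 and 2.89 RPKM with DMSO. The groups did not overlap, but they lay close, and the log2 fold change was 0.23 (95% interval 0.08 to 0.37, limma Benjamini-Hochberg adjusted p = 0.0145). The rise was not called after median-of-ratios scaling (log2 fold change 0.11, adjusted p = 0.165), without 611 replicate 2 (0.18, adjusted p = 0.0548) or without DMSO replicate 3 (0.19, adjusted p = 0.0541). Gata3 (NM_008091), the other GATA factor of fat cell precursors, measured 0.373, 0.378 and 0.297 RPKM with 611, against 0.312, 0.305 and 0.195 RPKM with DMSO. The groups overlapped, and the log2 fold change was 0.09 (95% interval -0.05 to 0.23, limma Benjamini-Hochberg adjusted p = 0.257). Gata3 rested on 25 to 50 reads per library, the fewest of the 10 genes, and at this low level the log2(RPKM + 1) scale compresses differences.

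Gata2 took 38.6%, 38.8% and 38.7% of the summed RPKM of Gata2, Gata3 and Gata6 in the 611 libraries, against 16.0%, 22.4% and 23.6% in the DMSO libraries. The 611 libraries agreed closely with each other, and the DMSO libraries spread more widely below them. The difference in means was 18.0 percentage points, again at the smallest exact permutation p of 0.1 (0.15 adjusted over the 3 families). The sum of the 3 genes was 6.71 ± 0.441 RPKM with 611 and 4.22 ± 0.301 RPKM with DMSO. The remaining GATA factors and the cofactors that bind them, 6 genes in all, held 4 that passed the filter. All 4 were called higher (3 after scaling), with a median log2 fold change of 0.335. Among all genes tested the share called higher was 41.6%, and 28.5% after scaling. Zfpm2, a cofactor of GATA factors also called FOG2, rose 2.46-fold, to 2.31 ± 0.129 RPKM with 611 against 0.936 ± 0.107 RPKM with DMSO (limma Benjamini-Hochberg adjusted p = 1.7e-05). Its relative Zfpm1 rose 1.51-fold, to 2.18 ± 0.300 RPKM with 611 against 1.44 ± 0.127 RPKM with DMSO (adjusted p = 0.00362, same test). Trps1, an atypical GATA-type repressor of skeletal development, measured 6.70 ± 0.616 RPKM with 611 and 5.28 ± 0.491 RPKM with DMSO (adjusted p = 0.0115, same test). Gata4 was the other call, at 1.83 ± 0.0241 RPKM with 611 and 1.32 ± 0.146 RPKM with DMSO, while Gata1 was listed at 0 in every library and Gata5 was under the filter.

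**Figure D2:**
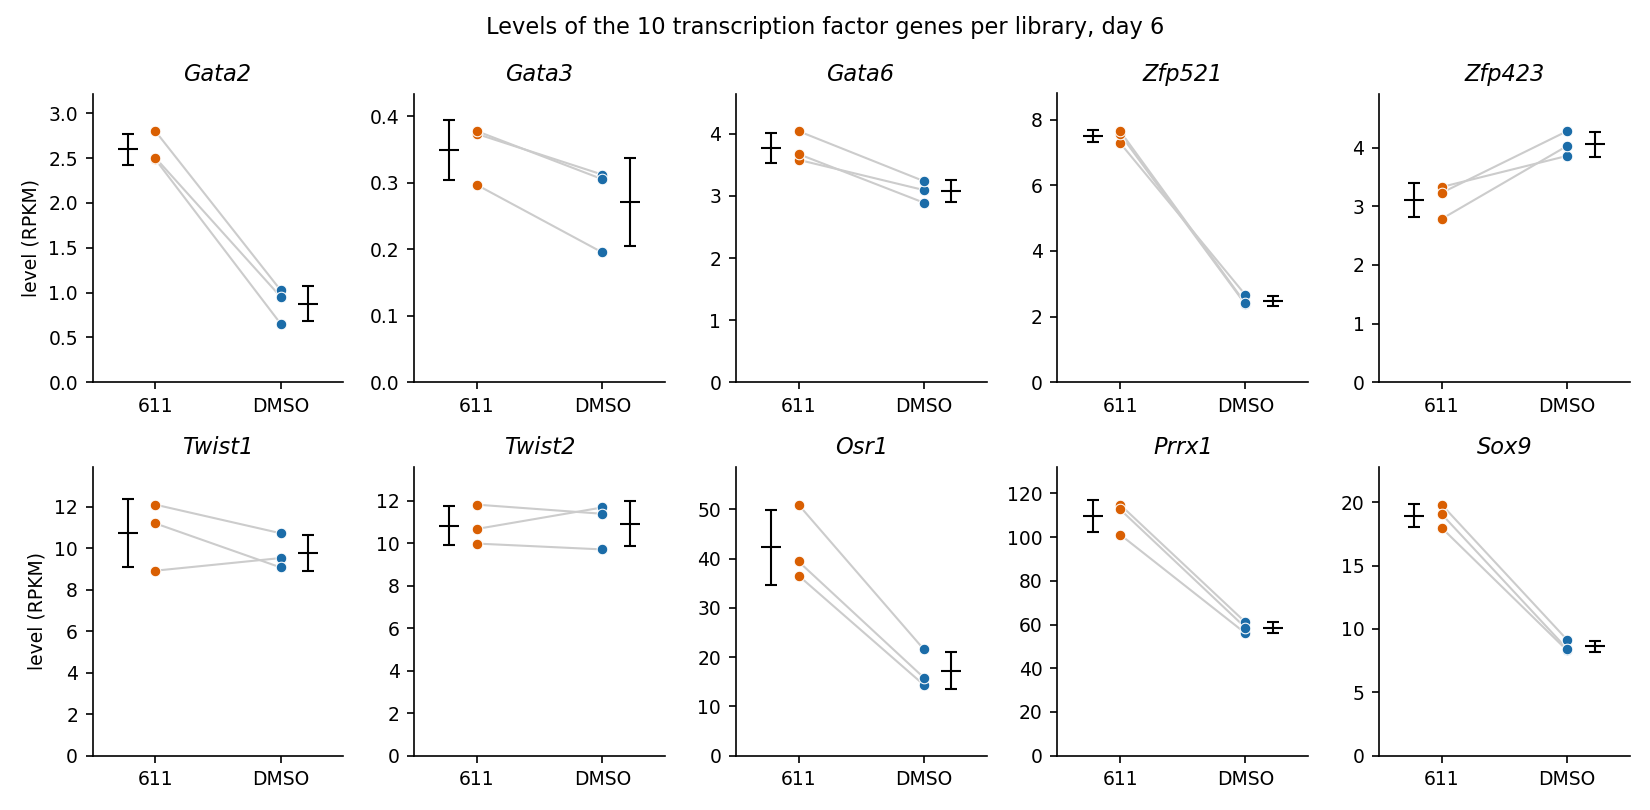
Level of each factor gene (RPKM, linear axes from 0) in the 3 libraries with 611 (left, orange) and the 3 with DMSO (right, blue). Grey lines join libraries of the same replicate number, and the cross bars give the mean and SD. Zfp521, Gata2, Osr1, Prrx1 and Sox9 separate widely, Zfp423 slopes the other way, and Gata3, Twist1 and Twist2 overlap.

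The basic helix-loop-helix factors Twist1 and Twist2 showed no difference past the threshold. Twist1 (NM_011658) measured 8.91, 12.1 and 11.2 RPKM with 611, against 9.52, 10.7 and 9.07 RPKM with DMSO. The lowest value of all came from 611 replicate 1, and the groups overlapped. The log2 fold change was 0.12 (95% interval -0.12 to 0.35, limma Benjamini-Hochberg adjusted p = 0.353). Without 611 replicate 1 it was 0.23 and was called higher (adjusted p = 0.0312), and after scaling it was -0.02 (adjusted p = 0.863). Twist2 (NM_007855), a repressor of the dermal mesenchyme, measured 10.7, 11.8 and 9.99 RPKM with 611, against 11.7, 11.4 and 9.72 RPKM with DMSO. The means of 10.8 ± 0.926 RPKM with 611 and 10.9 ± 1.07 RPKM with DMSO differed by less than either SD. Its log2 fold change was -0.01 (95% interval -0.19 to 0.17, limma Benjamini-Hochberg adjusted p = 0.916), and 508 to 639 reads per library lay behind it. That interval leaves room for a difference of either sign. Twist2 shares 1477 exon bases with an annotated antisense gene, Gm29100, and whether the authors' values used strand is not known.

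Twist2 made up 50.4 ± 3.76% of the summed Twist1 and Twist2 RPKM with 611 and 52.8 ± 2.01% with DMSO, a difference of -2.42 percentage points (exact two-sided permutation p = 0.4, adjusted 0.4 over the 3 families). Leaving out 1 library moved this difference, to -4.49 points without 611 replicate 1, -0.82 without 611 replicate 3 and -1.26 without DMSO replicate 1. The summed level was 21.6 ± 2.19 RPKM with 611 and 20.7 ± 1.72 RPKM with DMSO. The proteins Twist factors pair with, and the Id proteins that take those partners away, formed a list of 7. All 7 passed the filter, and 5 were higher, none was lower and the median log2 fold change was 0.364, with the same counts after scaling. All genes tested gave shares of 41.6% higher and 17.7% lower, and 28.5% and 28.6% after scaling. Tcf4, an E-protein partner, rose 2.09-fold to 13.4 ± 1.30 RPKM with 611 against 6.44 ± 0.375 RPKM with DMSO (limma Benjamini-Hochberg adjusted p = 9e-06). Another partner, Tcf3, rose 1.64-fold to 17.1 ± 1.35 RPKM with 611 against 10.4 ± 1.48 RPKM with DMSO (adjusted p = 3.09e-04, same test). Id2, an inhibitor without a DNA-binding region, rose 2.24-fold to 29.7 ± 3.94 RPKM with 611 against 13.3 ± 0.452 RPKM with DMSO (adjusted p = 9.14e-06, same test). Tcf12 and Id1 were the other calls, at 1.21-fold and 1.29-fold, and Id3 and Id4 were not called.

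**Figure D3:**
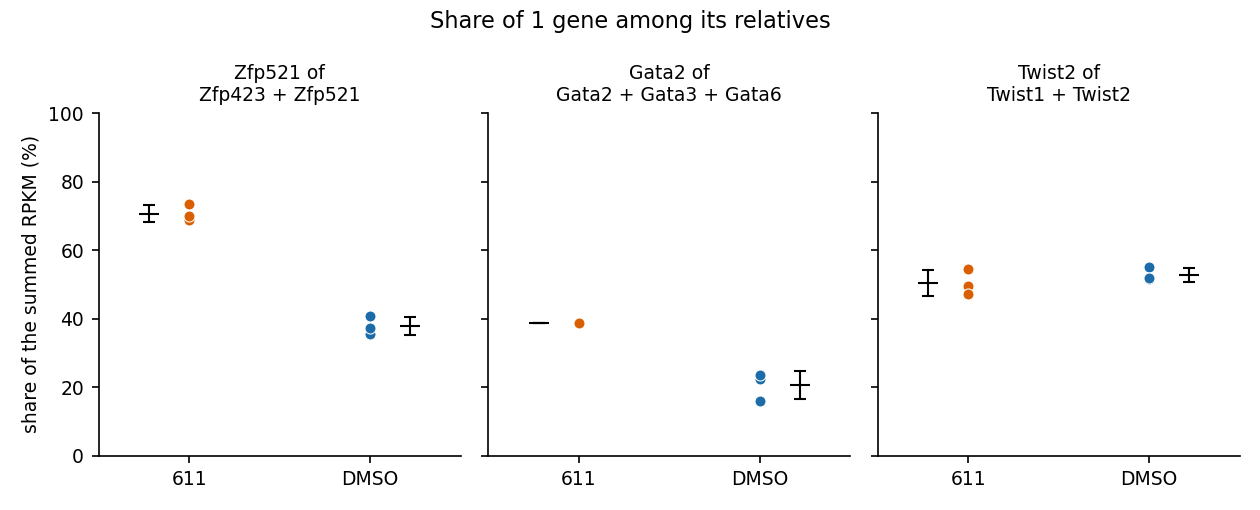
Share of Zfp521, Gata2 and Twist2 in the summed RPKM of their relatives (percent, axis 0 to 100), with 1 point per library, 611 left of DMSO, and bars for the mean and SD (n = 3 each). The 611 libraries hold 68.6% to 73.3% Zfp521 and about 38.7% Gata2, all above the DMSO libraries, and the Twist2 shares overlap.

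Osr1 and Prrx1, regulators of embryonic mesenchyme, had the highest levels of the 10 genes in both groups. Osr1 (NM_011859), an odd-skipped zinc finger factor, measured 36.6, 51.0 and 39.4 RPKM with 611, against 14.4, 21.6 and 15.8 RPKM with DMSO. Replicate 2 was the highest in each group, and the groups did not overlap. The ratio of 611 to DMSO within replicate numbers 1, 2 and 3 was 2.55, 2.36 and 2.49, a narrower spread than that of the levels. The means were 42.3 ± 7.62 RPKM with 611 and 17.3 ± 3.81 RPKM with DMSO, and the log2 fold change was 1.25 (95% interval 0.90 to 1.60, limma Benjamini-Hochberg adjusted p = 1.38e-04). With the replicate number as a block, the adjusted p was 1.04e-06.

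Prrx1 (NM_011127), a paired-type homeobox factor of limb and face mesenchyme, measured 101, 115 and 113 RPKM with 611, against 56.0, 61.0 and 58.6 RPKM with DMSO. All 611 libraries were far above all DMSO libraries. The ratio of the means was 1.87 and the log2 fold change 0.89 (95% interval 0.77 to 1.02, limma Benjamini-Hochberg adjusted p = 2.89e-06). Prrx1 was the sole member of the 10 with several transcripts in the tables, 3 in all. A second transcript, NM_175686, measured 108.7 ± 7.29 RPKM with 611 and 58.1 ± 2.54 RPKM with DMSO, also a ratio of 1.87. The third, NM_001025570, was at 56.6 ± 4.36 RPKM with 611 and 29.0 ± 1.56 RPKM with DMSO, a ratio of 1.95. The first and the second had nearly the same reads, so the tables cannot tell the isoforms apart and they were not summed.

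Other transcription factors of embryonic mesenchyme were mostly called higher. Of 34 listed, 24 passed the filter, 21 were higher and none was lower (20 and 0 after scaling), with a median log2 fold change of 0.632. The shares over all genes tested were 41.6% higher and 17.7% lower (28.5% and 28.6% after scaling). Prrx2, the closest relative of Prrx1, rose 2.80-fold to 40.3 ± 3.70 RPKM with 611 against 14.4 ± 2.42 RPKM with DMSO (limma Benjamini-Hochberg adjusted p = 7.27e-06). Foxd1, a forkhead factor of the kidney stroma, rose 2.48-fold to 13.3 ± 0.428 RPKM with 611 against 5.34 ± 0.320 RPKM with DMSO (adjusted p = 8.3e-07, same test). Osr2, the relative of Osr1, was not called, at 1.39 ± 0.365 RPKM with 611 and 1.07 ± 0.0364 RPKM with DMSO, nor were Foxf1 and Msx2. A group of 5 was listed at 0 in every library, among them Hand1, Hand2 and Tcf21. The list was drawn up with earlier results of these data known, and 10 of its 34 genes did not pass the filter.

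Sox9 (NM_011448), the high-mobility-group factor that directs cartilage formation, measured 18.0, 19.8 and 19.1 RPKM with 611, against 8.31, 9.15 and 8.44 RPKM with DMSO. The lowest 611 value was well above the highest DMSO value. The means were 18.9 ± 0.920 RPKM with 611 and 8.63 ± 0.453 RPKM with DMSO, a 2.20-fold rise on 3042 to 3382 reads per 611 library and 1338 to 1507 per DMSO library. The log2 fold change was 1.05 (95% interval 0.93 to 1.17, limma Benjamini-Hochberg adjusted p = 1.22e-06), and 0.91 after scaling.

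The cartilage genes that Sox9 is known to switch on or work with were called in both directions. Of 19 listed, 11 passed the filter, 5 were higher and 3 lower, with the same counts after scaling and a median log2 fold change of 0.089. Over all genes tested 41.6% were called higher and 17.7% lower (28.5% and 28.6% after scaling), so these counts are near the background and give no result particular to cartilage genes. Col2a1, the main cartilage collagen, rose 3.35-fold to 5.22 ± 0.590 RPKM with 611 against 1.56 ± 0.0592 RPKM with DMSO (limma Benjamini-Hochberg adjusted p = 2.46e-06). Col11a1, a chain of the collagen that joins its fibrils, rose 2.71-fold to 2.89 ± 0.370 RPKM with 611 against 1.07 ± 0.135 RPKM with DMSO (adjusted p = 2.86e-05, same test). Matn4, a matrix adaptor protein, rose 2.86-fold to 1.60 ± 0.250 RPKM with 611 against 0.558 ± 0.0800 RPKM with DMSO (adjusted p = 8.35e-05, same test). Comp and Matn3 were the other higher calls, both below 1 RPKM in mean with 611. Matn3 measured 0.252, 0.242 and 0.300 RPKM with 611, against 0.034, 0.092 and 0 RPKM with DMSO. It passed the filter through its 611 libraries alone, so the filter favoured a higher call in advance. Col11a2, a second chain of the same collagen, fell to 4.18 ± 0.298 RPKM with 611 against 6.67 ± 0.158 RPKM with DMSO (adjusted p = 5.17e-05, same test). Chad, a leucine-rich matrix protein, fell to 0.482 ± 0.237 RPKM with 611 against 1.04 ± 0.146 RPKM with DMSO (adjusted p = 0.00585, same test). Sox6, a partner of Sox9 in cartilage, was the third lower call although its libraries overlapped, at 0.291 ± 0.115 RPKM with 611 and 0.600 ± 0.196 RPKM with DMSO (adjusted p = 0.0296, same test). Acan, which encodes the large cartilage proteoglycan, was listed at 0 in all 6 libraries, as were Matn1 and Snorc. With a filter of 1 RPKM the list held 3 higher and 1 lower call of 5 tested.

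The order of the levels of the 10 genes differed between the groups. With 611 it ran, high to low, Prrx1, Osr1, Sox9, Twist2, Twist1, Zfp521, Gata6, Zfp423, Gata2 and Gata3. Neighbours whose library ranges overlapped were Twist2 and Twist1, and Zfp423 and Gata2. With DMSO the order was Prrx1, Osr1, Twist2, Twist1, Sox9, Zfp423, Gata6, Zfp521, Gata2 and Gata3, where Twist2 and Twist1 overlapped, as did Twist1 and Sox9. Sox9 was thus the third with 611 and the fifth with DMSO. Zfp521 was the sixth with 611 and the eighth with DMSO, and Zfp423 the eighth with 611 and the sixth with DMSO. Twist2 and Twist1 each stood a place lower with 611, below Sox9.

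A list of fat cell regulators was examined in full, most of them known to be restrained or supported by these factors. It also holds Dlk1, whose product acts upstream of Sox9, so its counts and median pool genes of unlike roles. Of 6 genes, all tested, 3 were lower, 1 was higher and 2 were not called, with the same counts after scaling and a median log2 fold change of -0.082. Over all genes tested 17.7% were called lower and 41.6% higher (28.6% and 28.5% after scaling). Pparg, the nuclear receptor that drives fat cell formation and a target of both Gata2 and Zfp423, measured 46.5, 44.1 and 45.0 RPKM with 611, against 61.8, 64.0 and 62.7 RPKM with DMSO. All 611 values were lower, with a 611 to DMSO ratio of 0.719 (log2 fold change -0.47, limma Benjamini-Hochberg adjusted p = 8.66e-06). Cebpa, which keeps mature fat cells in their state, fell to 58.2 ± 4.93 RPKM with 611 against 68.2 ± 2.73 RPKM with DMSO (adjusted p = 0.00995, same test).

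The C/EBP genes that Sox9 is known to repress split. Cebpb, an early adipogenic factor, fell to 57.4 ± 3.19 RPKM with 611 against 79.8 ± 7.73 RPKM with DMSO (limma Benjamini-Hochberg adjusted p = 5.03e-04). Cebpd, its early companion, was 1.60-fold higher, at 15.0 ± 1.61 RPKM with 611 and 9.36 ± 0.581 RPKM with DMSO (adjusted p = 1.3e-04, same test). Ppargc1a, the coactivator that Twist1 binds, was low and not called, at 0.705 ± 0.157 RPKM with 611 and 0.527 ± 0.0999 RPKM with DMSO (adjusted p = 0.129, same test). Dlk1, whose product acts upstream of Sox9 in precursors, measured 0.403 ± 0.145 RPKM with 611 and 0.338 ± 0.0889 RPKM with DMSO (adjusted p = 0.539, same test).

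Other transcription regulators that oppose fat cell formation formed a list of 11. Of the 11 listed, 10 passed the filter, 5 were higher and 2 lower (4 and 3 after scaling), with a median log2 fold change of 0.193. These counts are near the shares over all genes, 41.6% higher and 17.7% lower (28.5% and 28.6% after scaling). Gli3, a mediator of hedgehog signalling, rose 2.49-fold to 3.75 ± 0.135 RPKM with 611 against 1.51 ± 0.0722 RPKM with DMSO (limma Benjamini-Hochberg adjusted p = 3.32e-06). Hes1, a repressor downstream of Notch, rose 1.61-fold, and Klf2, a zinc finger factor known to repress Pparg, rose 1.53-fold (adjusted p = 1.22e-04 for Hes1 and 3.93e-04 for Klf2, same test). Ddit3, a stress-induced partner that blocks C/EBP binding, fell to 34.2 ± 1.08 RPKM with 611 against 53.1 ± 5.06 RPKM with DMSO (adjusted p = 4.99e-05, same test). Foxo1, a forkhead factor held in check by insulin, fell to 8.12 ± 0.408 RPKM with 611 against 10.8 ± 0.256 RPKM with DMSO (adjusted p = 2.64e-04, same test).

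The structural genes of mesenchymal cells were all called higher, 7 of 7 before and after scaling, with a median log2 fold change of 1.279. Of all genes tested, 41.6% were called higher, and 28.5% after scaling. This list too was drawn up with earlier results of these data known. Cdh11, a mesenchymal cadherin, rose 2.90-fold to 52.5 ± 5.58 RPKM with 611 against 18.1 ± 2.25 RPKM with DMSO (limma Benjamini-Hochberg adjusted p = 3.86e-06). Postn, a matrix protein of connective tissue, rose 2.77-fold to 91.6 ± 8.35 RPKM with 611 against 33.1 ± 5.68 RPKM with DMSO (adjusted p = 9.37e-06, same test). S100a4, a calcium-binding protein of fibroblasts, rose 2.51-fold to 739 ± 31.2 RPKM with 611 against 294 ± 1.94 RPKM with DMSO (adjusted p = 2.55e-07, same test).

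**Figure D4:**
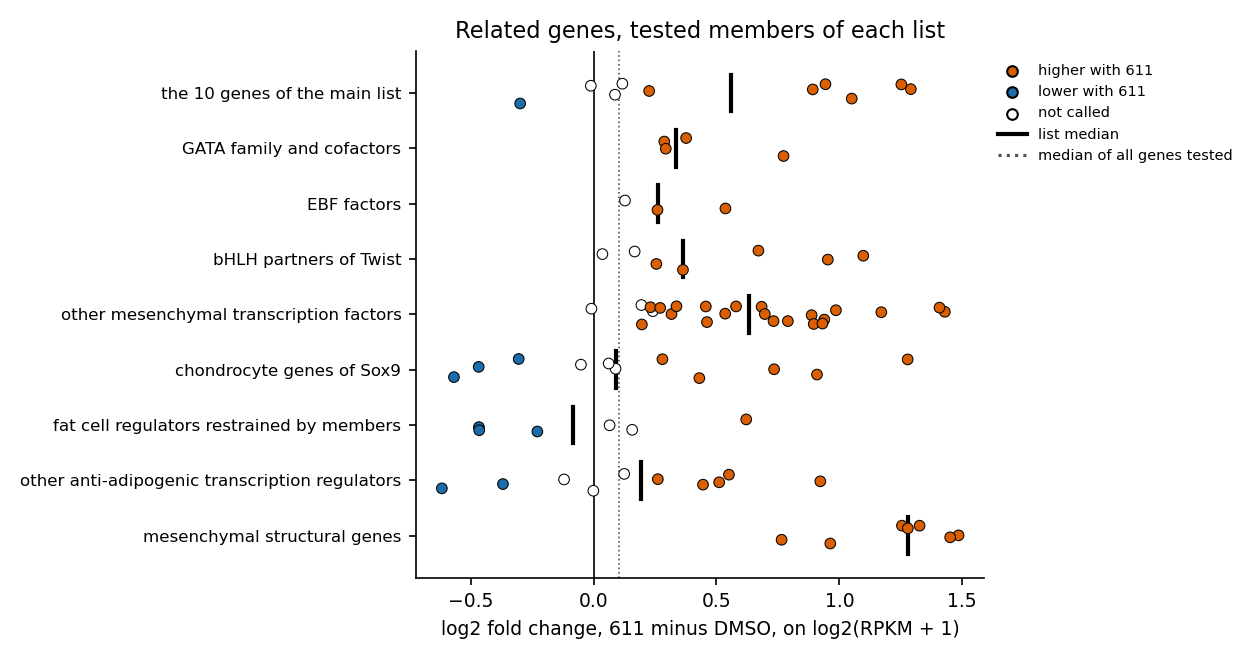
Log2 fold change (611 minus DMSO, on log2(RPKM + 1)) of every tested gene of the 10 factor genes and of each related list, with 1 circle per gene, coloured by call. Black bars are list medians, from -0.082 for the fat cell regulators to 1.279 for the mesenchymal structural genes, and the dotted line is the median of all genes tested, 0.104.

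Markers of the cells the cultures could hold were measured beside these genes, and most calls fell in the mesenchymal, adipocyte and smooth muscle sets. All 6 mesenchymal markers were called higher, and their summed level was 1218 to 1359 RPKM with 611 and 595 to 648 RPKM with DMSO. Most of that sum was Vim, at 1067 ± 64.0 RPKM with 611 and 547 ± 24.8 RPKM with DMSO. Vim and Pdgfra also belong to the structural genes above, so the 2 counts overlap. Adipocyte markers summed to 1.36e+04 to 1.51e+04 RPKM with 611 and 2.63e+04 to 2.75e+04 RPKM with DMSO, and 5 of 6 were lower. Smooth muscle markers summed to 75.3 to 85.0 RPKM with 611 and 34.5 to 36.1 RPKM with DMSO, with 3 of 6 higher (Acta2, Tagln and Smtn). Acta2 made up most of this, at 56.4 ± 3.75 RPKM with 611 and 22.1 ± 0.836 RPKM with DMSO. The others had lower means with 611 and no call. Myh11 was at 0.328 RPKM with 611 and 0.419 RPKM with DMSO, Des at 1.58 and 1.80 RPKM, and Cnn1 was under the filter. The shares called over all genes tested were 41.6% higher and 17.7% lower. The part of these markers in the changes of the factor genes was not tested.

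Chondrocyte markers summed to 7.47 to 7.95 RPKM with 611 and 3.50 to 4.41 RPKM with DMSO, with 1 of 6, Col2a1, higher and both Acan and Matn1 at 0. Their part in the rise of Sox9 was not tested. Endoderm markers, which bear on Gata6, summed to 1.81 to 1.88 RPKM with 611 and 1.17 to 1.46 RPKM with DMSO, nearly all of it Gata4, with Sox17 at 0. Endothelial and blood markers, which bear on Gata2, were low. The 6 endothelial markers summed to 0.313 to 0.323 RPKM with 611 and 0.0875 to 0.232 RPKM with DMSO, so that the 611 libraries lay above the DMSO libraries. With 611 most of this was Tek. Pecam1 was under the filter, at 0.0516 ± 0.0192 RPKM with 611 and 0.0685 ± 0.0571 RPKM with DMSO. Cdh5, Kdr and Tie1 were at 0 in all, and 1 of the 6 was called higher, Tek, at 0.254 ± 0.0216 RPKM with 611 and 0.0852 ± 0.0157 RPKM with DMSO (limma Benjamini-Hochberg adjusted p = 0.00747). Their part in the rise of Gata2 was not tested. The 5 blood markers in the tables summed to 0.0689 to 0.118 RPKM with 611 and 0.0598 to 0.0926 RPKM with DMSO, with none called and Ptprc and Tal1 at 0. T cell markers, which bear on Gata3, summed to at most 0.0395 RPKM, with 4 of 5 at 0, and skeletal muscle markers to at most 0.0470 RPKM, with 5 of 6 at 0. Neural crest and glia markers, which bear on Sox9 and Twist1, summed to 3.28 to 4.00 RPKM with 611 and 3.35 to 4.34 RPKM with DMSO, with none of 5 called.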

How the data were processed

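Messenger RNA was sequenced in 6 libraries, 3 with 611 and 3 with DMSO, grouped by sample title. Per the labels' protocols, TRIzol was used for extraction and a stranded mRNA kit for library construction. The tools were TopHat, TopHat2 (2.0.12) and SAMtools and the genome build was mm9, per the submitters' processing notes. The authors deposited 1 RPKM table per library, with 28430 RefSeq transcripts. Not given in the sources used here are the program that made the RPKM values, its annotation release and its use of strand.

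Symbols were matched by accession to a RefSeq gene table of GRCm38.p6, used for names, and 27789 of 28430 accessions matched. The transcript with the highest mean RPKM stood for each gene, and no gene coordinates are printed because the builds differ. Promoter coordinates are those of GRCm38.p6. Genes at 0.1 RPKM or more in at least 3 libraries were tested with limma 3.58.1 (R 4.3.3), with trend and a model of group alone, on log2(RPKM + 1), a scale that understates changes of low genes. Fits were tested on simulated data. Folds are ratios of mean RPKM, and the errors are SDs over 3 libraries. Family shares were compared by exact two-sided permutation.

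RPKM values do not state depth, but low values were whole multiples of 1 read. For 9 of the 10 genes all 6 libraries came out whole at 1 transcript length, within 0.02 reads plus 2e-05 per read; Prrx1 did not. Those reads are given as depth only. They are not independent molecules, and Twist2, Gata3 and Gata6 overlap annotated neighbours by 1477, up to 155 and 93 exon bases in the GENCODE annotation of GRCm38.

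Members and lists were chosen with earlier results of these data known. Named genes are the 10 factors, all fat cell regulators, and up to 3 called genes per direction of each other list, largest log2 fold change first, at 1 RPKM or more in the higher group. A gene that this rule names is not reported here. Other genes named were chosen after their values were seen. Deviations from the group means correlated over genes between libraries of equal replicate number (0.296, 0.298 and 0.177), against -0.233 to -0.071 for unequal numbers. The labels state no pairing, so whether the numbers pair the libraries is not known. The main fit therefore held group alone, and a fit with a replicate block was run as an alternative. Other alternatives were the pseudocount, the filter, median-of-ratios scaling, limma without trend, a second transcript and each library left out.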

Additional observations from a re-analysis of the deposited data

How the results depend on the processing

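Over all genes, 5758 were called higher and 2451 lower. Median-of-ratios scaling gave 3941 higher and 3962 lower, and scaling with the replicate block, chosen after seeing the data, gave 4286 higher and 4327 lower. In these data scaling lowered each 611 library relative to DMSO. The factors that the values were divided by were 1.04 to 1.07 for 611 and 0.941 to 0.963 for DMSO. Under scaling with the replicate block 2 of the 10 factor genes were called lower, with Twist2 (log2 fold change -0.15, limma adjusted p = 0.0263) joining Zfp423. The replicate block alone gave 6169 higher and 2700 lower calls and, among the factor genes, 6 higher and 1 lower with no call changed. Leaving out 1 library at a time gave 5171 to 5533 higher and 2165 to 2327 lower genes, and 5 to 7 factor genes higher and 1 lower. Of 140 log2 fold changes of factor genes under an alternative, 129 kept their direction and side of the threshold, 4 (all Gata6) lost their call, 2 (Twist1 without 611 replicate 1, and Twist2 as above) gained one and 5, of Twist1 and Twist2, took the other sign without a call. Twist2 was at 0.04, 0.04 and 0.02 without 611 replicate 3, DMSO replicate 1 and DMSO replicate 2. Of 224 list counts, 216 stayed within 1.5 times. All 18 family shares with a library left out kept their direction, and that of Twist2 ranged from -4.49 to -0.82 points. Among factor genes a second transcript exists in the tables for Prrx1, and its call was kept. Gata3 gave no value under the filter of 1 RPKM. The fewest reads, 25 to 50 per library, lay behind Gata3.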
